A study of Drosophila melanogaster with 2 samples.

Results

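In replicate 3 of an Atf-2 binding experiment, 585 regions were among the strongest of the library and yet fell outside the list of reproducible peaks. Chromatin immunoprecipitation and sequencing (ChIP-seq) was done on whole Drosophila melanogaster embryos of both sexes, aged 0 to 24 h. The embryos were of the strain Atf-2-GFP, a transgenic line that makes Atf-2 with green fluorescent protein at its C-terminal end, and an antibody to GFP was used for the precipitation, per the sample descriptions, although the antibody label names Atf-2. The only group held 2 biological replicates, numbered 2 and 3, so no condition was compared with another. These embryos span many stages and cell types, so no signal can be assigned to a tissue, and the labels do not say whether untagged Atf-2 was also made.

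The regions were taken from the dm6 list of replicate 3, which holds 30000 regions, background included, each with a signal written by the authors' peak caller. They were chosen by 2 measured values, a high replicate 3 signal and absence from the list of peaks that passed the irreproducible discovery rate (IDR). As many of the strongest regions were taken as the IDR list has peaks. Of these, 2680 shared at least 1 bp with an IDR peak and 585 (17.9%) shared none. The rule can also be read as taking that number among all 25977 replicate 3 regions outside the IDR list, and values for that reading are given with the other settings. The 585 regions were all 436 bp wide, ranked between 1048 and 3263 in replicate 3, and had signals of 32.8 to 60.0 with a median of 36.2. Since both replicates and the pooled list went into the IDR list, a low rank in replicate 2 or in the pooled list is built into the choice, and such ranks are described below without a test. Position, base composition and sequence sites were not used in the choice.

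Atf-2 belongs to the transcription factors with a basic leucine zipper (bZIP). Proteins of this class bind DNA as dimers, and the relatives closest to Atf-2 recognise the cAMP response element (CRE), while other dimers prefer the AP-1 site or mixed C/EBP-ATF sites. Atf-2 is a substrate of the stress kinase p38. An IDR list is made from the ranks of regions in the replicates, so a region that is strong in one and weaker in the other can fall outside it.

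A CRE, TGACGTCA, lay within 100 bp of the summit in 7 of the 585 regions, and 4 of these sites are shown because the CRE is the site by which Atf-2 relatives are known. Each window is 101 bases of the plus strand of dm6 (Release 6, from RefSeq), with the CRE in capitals, and is named by the gene whose transcription start site (TSS) is nearest to the summit.
CG11588, chr3L:11918314-11918414: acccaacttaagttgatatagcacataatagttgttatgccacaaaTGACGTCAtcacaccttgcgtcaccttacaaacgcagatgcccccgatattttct
bab1, chr3L:1098652-1098752: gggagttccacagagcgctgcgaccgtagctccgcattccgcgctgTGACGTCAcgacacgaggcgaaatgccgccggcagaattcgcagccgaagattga
lbe, chr3R:21460142-21460242: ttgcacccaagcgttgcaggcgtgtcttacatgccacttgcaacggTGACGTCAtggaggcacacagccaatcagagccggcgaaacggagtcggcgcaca
sqz, chr3R:19166387-19166487: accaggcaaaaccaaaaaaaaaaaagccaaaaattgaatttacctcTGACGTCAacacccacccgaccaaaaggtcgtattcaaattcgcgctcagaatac
The gene bab1 encodes a BTB-domain transcription factor, lbe a homeodomain protein and sqz a zinc finger factor. The GC content around the summit was 36.8% near CG11588, 40.8% near sqz, 57.7% near lbe and 60.7% near bab1, so the sites lay in sequence of unlike composition. The 3 strongest of the 585 regions had none of the 8 bZIP-type sites searched within 100 bp of the summit. Their windows, centred on the summit, are shown next with the GAGA site (GAGAGAG or CTCTCTC) in capitals.
trx, chr3R:14277876-14277976: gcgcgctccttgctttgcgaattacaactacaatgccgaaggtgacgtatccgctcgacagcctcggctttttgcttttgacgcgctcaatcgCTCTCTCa
Efa6, chr3R:22589376-22589476: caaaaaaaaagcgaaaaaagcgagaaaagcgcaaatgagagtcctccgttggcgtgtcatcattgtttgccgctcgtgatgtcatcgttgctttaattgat
Reg-2, chr3L:613664-613764: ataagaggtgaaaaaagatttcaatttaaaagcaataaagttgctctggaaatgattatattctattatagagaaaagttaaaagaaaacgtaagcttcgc
Windows from 2 coding exons, of the tyrosine kinase gene Abl and of EMC4, which encodes a subunit of a membrane protein complex of the endoplasmic reticulum, are shown because coding summits set these regions apart from the peaks of the IDR list. The window at the promoter of GstD1, a glutathione S-transferase gene, is shown for its runs of GAGA sites, in capitals.
Abl, chr3L:16646876-16646976: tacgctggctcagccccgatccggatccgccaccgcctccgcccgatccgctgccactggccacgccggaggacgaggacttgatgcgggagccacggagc
EMC4, chr3L:22867918-22868018: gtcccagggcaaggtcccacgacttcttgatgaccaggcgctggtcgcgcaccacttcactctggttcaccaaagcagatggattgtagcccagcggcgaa
GstD1, chr3R:12369338-12369438: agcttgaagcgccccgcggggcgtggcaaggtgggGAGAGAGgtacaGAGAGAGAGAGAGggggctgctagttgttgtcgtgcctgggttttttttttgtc
At Abl the GC content around the summit was 69.2%, the highest of the 585 regions, and at EMC4 it was 51.2%.

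In the replicate 2 list, these regions were mostly present, below the IDR regions and above replicate 3 regions in general. Of all 30000 replicate 3 regions, 55.4% had a replicate 2 region, at a median rank of 8544 there. A replicate 2 region overlapped 527 of the 585 (90.1%), in 518 distinct replicate 2 regions, and 58 had none. The best replicate 2 rank was 2639, the median 6888 and the worst 29955 of 30000. Only 12 (2.05%) were within the equally many strongest regions of replicate 2, 240 (41.0%) were within its first 6530, and 72 lay beyond rank 15000. Of the 1631 replicate 3 regions in the IDR list with ranks in the same span, 1629 had a replicate 2 region. Their median rank there was 1911, and 84.6% were within that number of its strongest regions. These IDR regions, called those of the same ranks below, share only the outer limits of rank with the set. Their median replicate 3 signal was 43.7, against 36.2 in the set, so strength was not matched. The median replicate 2 signal was 33.7 for the 585 regions and 78.9 for those in the IDR list. Signals of different lists share no common scale, and their ratio is only a description. Its median, replicate 2 over replicate 3, was 0.907 outside the IDR list (SD 0.48 on the log2 scale, n = 527 regions) and 1.84 inside it (SD 0.54, n = 1629). Replicate 2 had the lower signal in 330 of 527 regions outside and in 65 of 1629 inside. Across regions, Spearman's rho between the signals was −0.03 outside the IDR list and 0.26 inside it. The choice by signal narrows the range of both, and all regions come from the same 2 libraries.

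**Figure D1:**
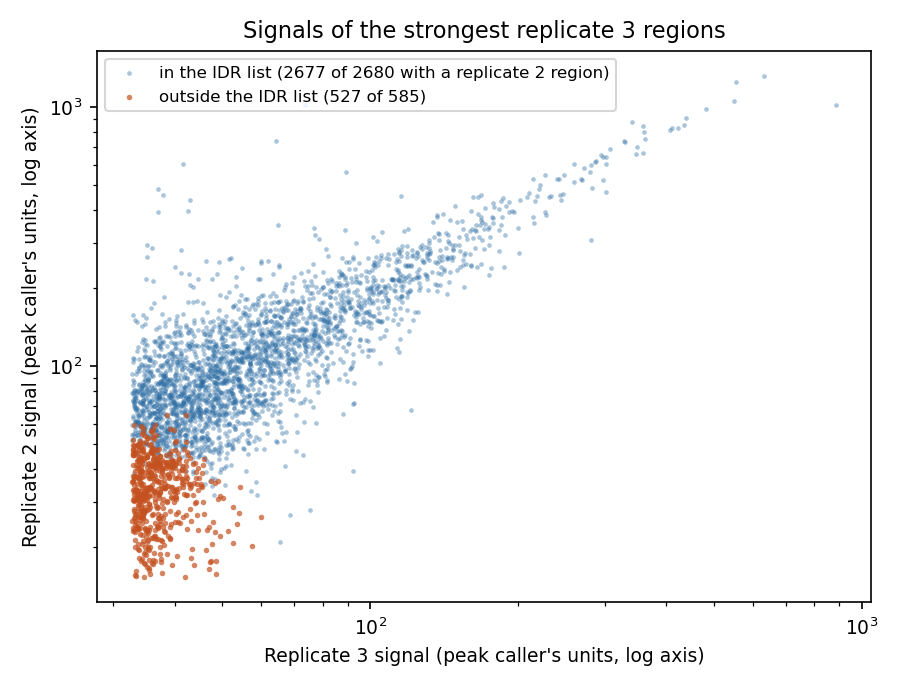
Replicate 2 signal against replicate 3 signal, both in the peak caller's units on log axes, for the strongest replicate 3 regions that had a replicate 2 region. The 527 regions outside the IDR list (orange) lie at the low end of both axes, with replicate 3 signals of at most 60.0, and the 2677 in the IDR list (blue) extend to 885 in replicate 3.

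In the pooled list 584 of the 585 regions were found, at ranks of 3276 or worse with a median of 4582.5. All 2680 strong regions of the IDR list ranked between 1 and 3263 there, so these sets did not overlap in pooled rank. The strong replicate 2 regions outside the IDR list began at pooled rank 3267. In replicate 2, the strong IDR regions ranked as poorly as 17083, and 3 had no region. None of the first 1000 replicate 3 regions was outside the IDR list. The share outside was 1.80% for ranks 1001 to 1500, 10.2% for ranks 1501 to 2000, 28.2% for ranks 2001 to 2500, 45.8% for ranks 2501 to 3000 and 58.5% from rank 3001 to the limit, so most of the set lay near the limit. At the limit itself the signal was 32.7675 for the last rank taken and 32.7655 for the next. The weakest 5 of the set were nearest to nerfin-1 (32.8302), CG3038 (32.818), ckn (32.7822), crol (32.7796) and CG15615 (32.7745). The first 5 regions below the limit that were outside the IDR list were nearest to SNF4Agamma (32.7655), Ance-5 (32.761), CG32017 (32.7486), CG6330 (32.7378) and pxb (32.726). All 10 signals thus lay between 32.726 and 32.8302. The −log10 q-value that the authors deposited ranged from 2.49 to 3.69 in the 585 regions, and over the same range in the 2680 strong regions of the IDR list. Within that range the set was lower, with a median of 2.89, against 3.69, the highest value, in the strong IDR regions. In the IDR regions of the same span of ranks the median was also 3.69.

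Replicate 2 had far fewer such regions. The same rule applied to its list gave 269 regions (8.24%) outside the IDR list, of which 230 (85.5%) had a replicate 3 region, at a median rank of 10163.5. The regions shared between the sets were 12 of the 585 (2.05%) and 11 of the 269 (4.09%).

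The 5 regions of best replicate 2 rank had summits at most 636 bp from a TSS. A pair of overlapping replicate 3 regions near Mrp4, which encodes an ABC transporter, lay on the same replicate 2 region of rank 2639, with replicate 3 signals of 42.1 and 38.6 and a replicate 2 signal of 65.0. The next were at milt (rank 2984), an adaptor that couples mitochondria to kinesin, in a coding exon of slmo (2987) and in an intron of EcR (3030), the ecdysone receptor. The worst were at CycB3 (29955), a mitotic cyclin, near Dad (29671), an inhibitory Smad, at CG4576 (29335), in the coding exon of Rfk next to Prat (28997), and at fng (28739), a glycosyltransferase that modifies Notch. At CycB3 the signal was 42.0 in replicate 3 and 15.3 in replicate 2, and at fng it was 48.6 and 15.7. The fng region was thus the 14th strongest of the set and close to the bottom of the replicate 2 list.

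Summits of the set lay in exons more often than those of the IDR list. Coding exons held 44 of 585 summits (7.52%, exact Clopper-Pearson 95% interval 5.52 to 9.97%), against 0.709% of the 2680 strong regions in the IDR list, a difference of 6.81 percentage points (Newcombe 95% interval 4.90 to 9.25). Against the 1631 IDR regions in the same span of ranks the difference was 6.60 points (4.64 to 9.05), and against the strong replicate 2 regions outside the IDR list, of which 0.743% were coding, it was 6.78 points (4.09 to 9.26). The coding share was below that of all 30000 replicate 3 regions, 21.5%, and below the 16.7% of genome bases that are coding. In all, 69 such differences were computed, over 23 measures and 3 sets, with no adjustment. The intervals count regions, not embryos, and cover counting error only. Read totals are not part of the lists, so the depth behind each signal is unknown.

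The 5′ UTR held 103 summits (17.6%, interval 14.6 to 20.9%), which was 5.34 points (2.02 to 8.97) above the IDR regions of the same ranks and 9.80 points (5.01 to 14.0) above the strong replicate 2 regions outside the list. Introns held 244 (41.7%), intergenic sequence 166 (28.4%), noncoding exons 16 (2.74%) and 3′ UTRs 12 (2.05%). Of all replicate 3 regions, 8.40% were in 5′ UTRs, 39.5% in introns and 24.8% intergenic, and of genome bases 3.38%, 42.7% and 30.5%. The intergenic share was lower than in the other strong sets, by −7.92 points (−12.1 to −3.49) against the IDR regions of the same ranks. Against the replicate 2 regions the difference was −11.0 points (−17.9 to −4.23). Its own interval (24.8 to 32.2%) took in the shares of all replicate 3 regions and of genome bases. For introns the interval of the difference from the IDR regions of the same ranks took in 0 (−9.14 to 0.181 points).

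**Figure D2:**
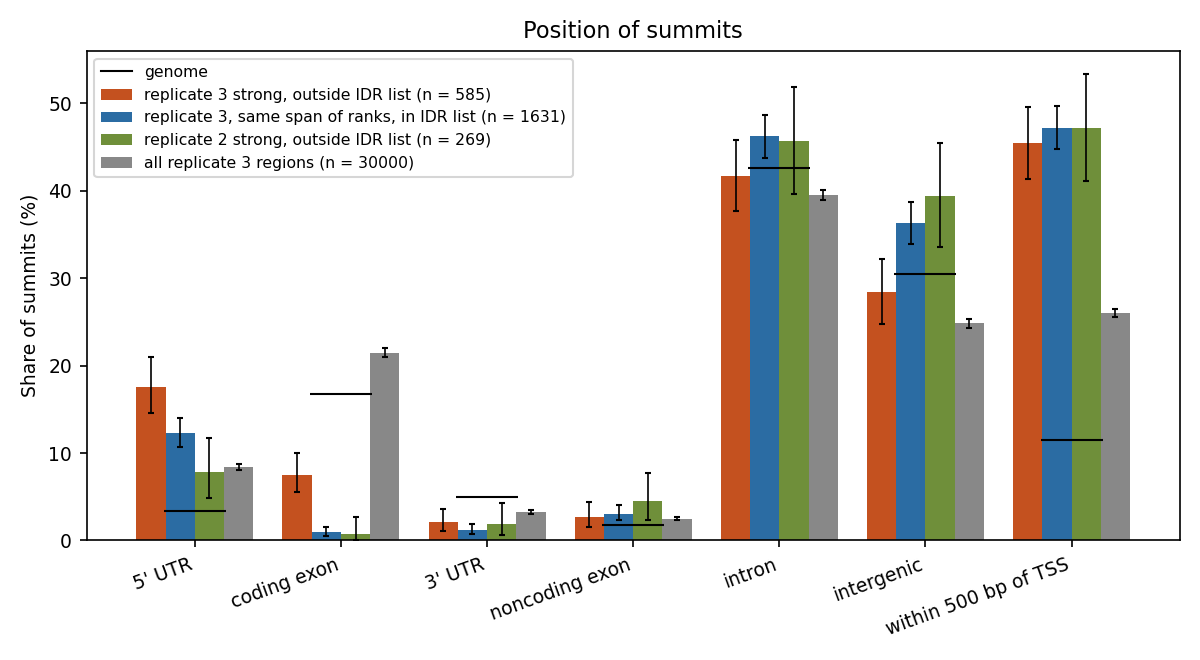
Share of summits (%) in each kind of annotated sequence and within 500 bp of a TSS, with exact 95% intervals as error bars, for 4 sets of regions, and black lines for the share of genome bases. The strong replicate 3 regions outside the IDR list (orange) stand at 17.6% in 5′ UTRs and 7.52% in coding exons. Both are above the IDR regions of the same span of ranks (blue), while the shares within 500 bp of a TSS lie close together.

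With promoters taken to 500 bp, the share of promoter summits was not resolved from that of the other strong sets. A protein-coding TSS was at most 500 bp from 266 of the 585 summits (45.5%, interval 41.4 to 49.6%), against 26.0% of all replicate 3 regions and 11.5% of genome bases. The difference from all strong regions in the IDR list was −3.93 points (−8.35 to 0.538). It left out 0 with promoters taken to 250 bp (−5.15 points, −9.30 to −0.813) and when the strongest regions were taken among all those outside the list (−12.7 points, −15.2 to −10.2). The difference from the IDR regions of the same ranks was −1.74 points (−6.41 to 2.98), and that from the replicate 2 regions outside the IDR list was −1.74 points (−8.92 to 5.40). Which side of the start site the summit took did differ. Downstream of the nearest TSS, in the direction of transcription, lay 122 of the 266 promoter summits (45.9%, interval 39.8 to 52.1%), against 190 of 770 (24.7%) in the IDR regions of the same ranks, a difference of 21.2 points (14.5 to 27.9). In the replicate 2 regions outside the list it was 22 of 127 (17.3%), a difference of 28.5 points (19.0 to 36.7). The median position was −18 bp from the TSS in the set, −71.5 bp in the IDR regions of the same ranks and −72 bp in the replicate 2 regions. All replicate 3 regions near a TSS had 48.4% of summits downstream, and the set's difference from them was −2.58 points (−8.58 to 3.52). This measure, with 4 further differences, was added after the other positions had been seen.

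**Figure D3:**
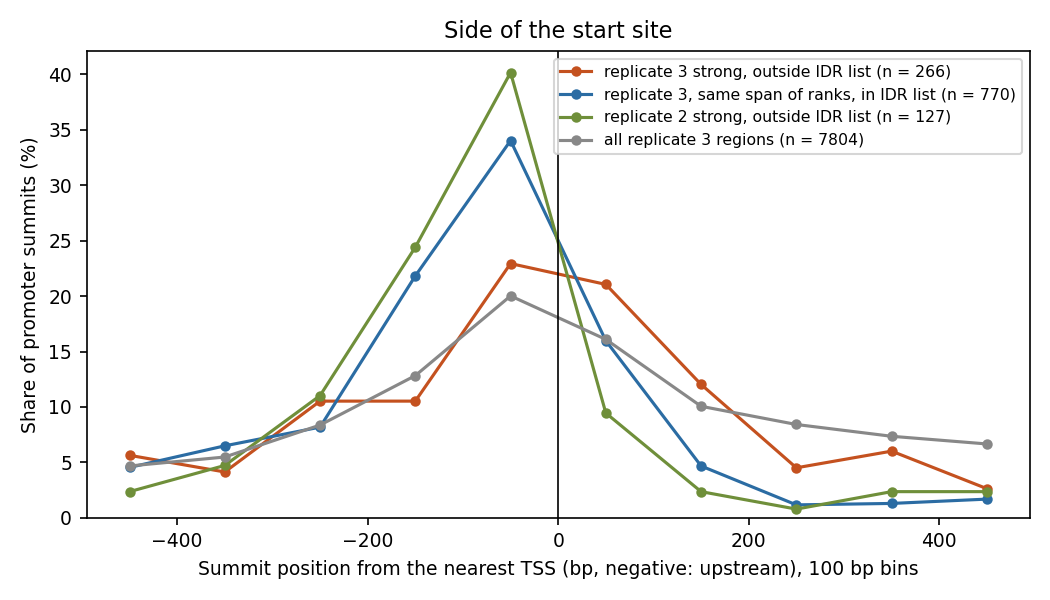
Share of promoter summits (%) in 100 bp bins of position from the nearest protein-coding TSS, negative upstream, for 4 sets. The strong replicate 3 regions outside the IDR list (orange) hold 22.9% of their promoter summits in the 100 bp upstream and 21.1% in the 100 bp downstream of the TSS. The curves of the IDR regions of the same span of ranks (blue) and of the replicate 2 regions (green) fall off downstream.

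The windows of the set were richer in G and C. The GC content of 201 bp around the summit was 42.2% ± 8.92 (SD, n = 585 regions), against 37.8% ± 6.82 (n = 1631) in IDR regions of the same ranks and 37.7% ± 6.49 (n = 269) in replicate 2 regions outside the list. The genome as a whole had 42.2% and all replicate 3 regions 44.4% ± 9.39. Composition followed annotation, with 56.8% ± 6.42 at the 44 coding summits, 46.1% ± 6.88 at the 103 in 5′ UTRs and 39.8% ± 7.51 at the 244 in introns. Introns of IDR regions of the same ranks had 36.9% ± 6.39, so a gap remained within one kind of sequence. GC content is known to affect recovery in sequencing libraries, and its part in these differences was not tested.

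Within bins of replicate 3 rank, the intervals of the coding shares were apart for ranks 2001 to 3000 and overlapped in the other bins that held regions of both sets. Overlap of such intervals does not show that the shares are alike. Among ranks 1001 to 1500, none of 9 summits outside the IDR list was coding and 0.815% of 491 inside it were. Among ranks 1501 to 2000, 5.88% of 51 summits outside the IDR list were coding (interval 1.23 to 16.2%) and 0.891% of 449 inside it (0.243 to 2.27%). Among ranks 2001 to 2500 it was 6.38% of 141 outside (2.96 to 11.8%) and 0.557% of 359 inside (0.0675 to 2.00%). Among ranks 2501 to 3000 it was 8.73% of 229 outside (5.42 to 13.2%), and the upper bound inside was 1.35%. In the last bin, from rank 3001 on, the share was 7.74% of 155 outside (4.06 to 13.1%) and 4.55% of 110 inside (1.49 to 10.3%), and these intervals overlapped. The 18 regions outside the list among the stronger 50% of ranks had no coding summit, a count that allows a share of up to 18.5% by the exact interval.

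**Figure D4:**
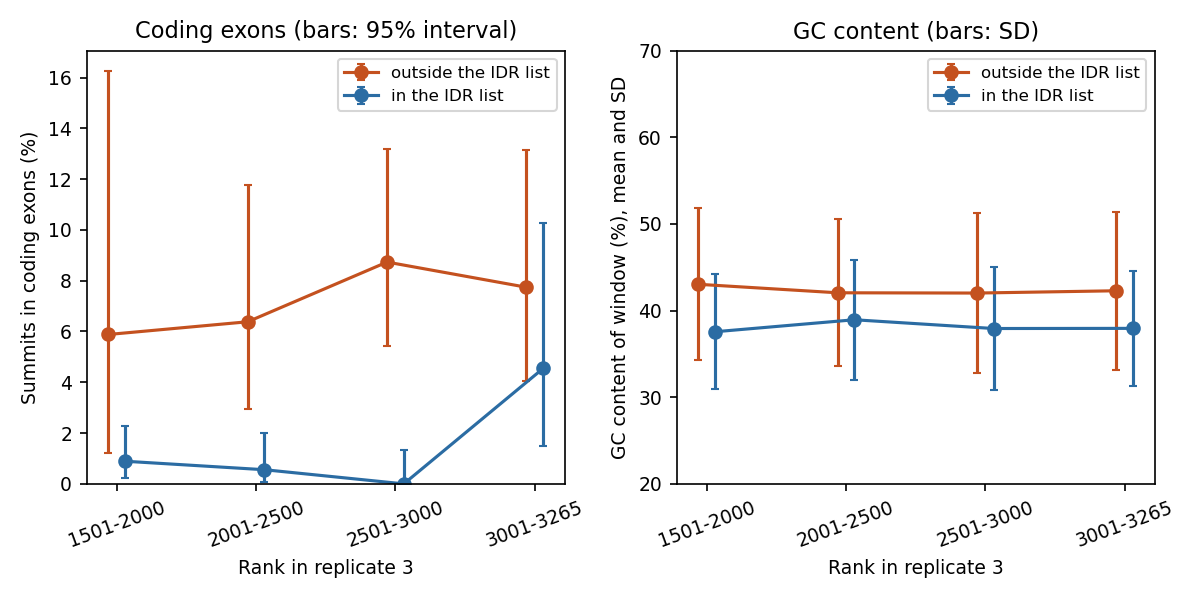
Share of summits in coding exons (left, %, with exact 95% intervals) and GC content of the window (right, %, mean with SD as bars) by rank in replicate 3, outside (orange) and in (blue) the IDR list. The coding share outside is between 5.88 and 8.73% in each bin shown, and mean GC content outside is above 42% in each, against 37.6 to 38.9% inside.

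Within the set, mean GC content and the coding share were higher at worse replicate 2 ranks. The intervals of the coding shares overlapped, which does not show that the shares are alike. Of the 58 regions with no replicate 2 region, 9 were coding (15.5%, interval 7.35 to 27.4%) and GC content was 45.9% ± 9.31. Of the 240 with a replicate 2 rank up to 6530, 11 were coding (4.58%, 2.31 to 8.05%) with a GC content of 39.4% ± 8.12. Those ranked 6531 to 15000 had 7.44% coding (4.31 to 11.8%) and 42.8% ± 8.31 GC, and the 72 beyond 15000 had 11.1% (4.92 to 20.7%) and 46.7% ± 9.77. Replicate 2 rank was bounded by the choice of regions, so these values are given as description. Promoter shares were 50%, 45.0%, 45.1% and 44.4% in these 4 groups, within each other's intervals.

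On the X chromosome the set was sparse. It held 71 of the 585 regions (12.1%, interval 9.60 to 15.1%), against 19.4% of the IDR regions of the same ranks, a difference of −7.24 points (−10.4 to −3.80), 17.5% of the replicate 2 regions outside the list (difference −5.34 points, −10.9 to −0.339), and 17.6% of the genome's bases. All replicate 3 regions had 15.4% on X. Chromosome arm 3R held 145, 2R 130, 3L 123, 2L 112 and the small chromosome 4 held 4.

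bZIP-type sites were rare in the set, as in the regions and genome windows it was compared with. The 8 strings sought on both strands within 100 bp of the summit were the CRE, its variants TGACGTAA and TGACGCAA, the unfolded protein response element TGACGTGG, the AP-1 site TGACTCA, the C/EBP-ATF site TGATGCAA, the CNC-Maf site TGACTCAGC, which contains the AP-1 site, and the PAR bZIP site TTACGTAA. At least one was in 17 of 585 windows (2.91%, interval 1.70 to 4.61%), against 4.33% of strong regions in the IDR list, a difference of −1.42 points (−2.79 to 0.417), 4.04% of all replicate 3 regions and 3.59% of 664860 genome windows of the same length. The interval took in 0, so no difference was resolved. A CRE was in 7 windows (1.20%, interval 0.482 to 2.45%), against 0.634% in the IDR list, 0.370% of all replicate 3 regions and 0.271% of genome windows. The interval thus lay above the shares of all replicate 3 regions and of genome windows. It rests on 7 windows, with no adjustment for the 14 sites searched. The difference from the IDR list was 0.56 points (−0.161 to 1.84). A scrambled CRE, AGTCGACT, was in 1 window of the set. The AP-1 site was in 6 windows (1.03%), against 2.24% in the IDR list and 1.59% of genome windows, a difference of −1.21 points (−2.05 to 0.0793) from the former. The unfolded protein response element and the C/EBP-ATF site were in 2 windows each and TGACGCAA in 1. TGACGTAA, the CNC-Maf site and the PAR bZIP site were in 0 of 585, which allows a share of up to 0.513% for each by a limit of 3 counts, and up to 0.629% by the exact interval. These matches describe letters near a summit and do not show what was bound.

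Other regions with a CRE were 33 bp from the TSS of Cmpk, a nucleotide kinase gene, with a signal of 43.5, and 5 bp from that of Rep, a Rab escort protein gene, with a signal of 36.5. The signals near CG11588 (34.1), bab1 (33.8), lbe (33.5) and sqz (33.2) were lower. In replicate 2, the one near lbe had no region, and the others named here ranked between 8064 near CG11588 and 22400 near bab1. None of these was therefore among the 240 regions with a replicate 2 rank up to 6530.

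The GAGA site, which GAGA factor binds at many fly promoters, was in 39 windows (6.67%, interval 4.78 to 9.0%), against 3.68% of IDR regions of the same ranks, a difference of 2.99 points (0.957 to 5.44), and 2.45% of genome windows. Against the replicate 2 regions outside the list, with 4.46%, the difference was 2.21 points (−1.42 to 5.20) and took in 0. It was in trx, the strongest region, in siz, with a signal of 49.3, and in GstD1, with 47.8. The DREF factor's promoter element, TATCGATA (DRE), was in 24 windows (4.10%), against 3.80% of IDR regions of the same ranks (difference 0.30 points, −1.39 to 2.40) and 0.564% of genome windows. The M1BP site GGTCACACT was in 9 (1.54%), against 1.47% and 0.201%. The Zelda site CAGGTAG was in 9 (1.54%), against 0.674% of IDR regions of the same ranks (difference 0.86 points, −0.04 to 2.26) and 1.09% of genome windows, and the E-box CACGTG in 18 (3.08%) against 1.90% and 2.36%.

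**Figure D5:**
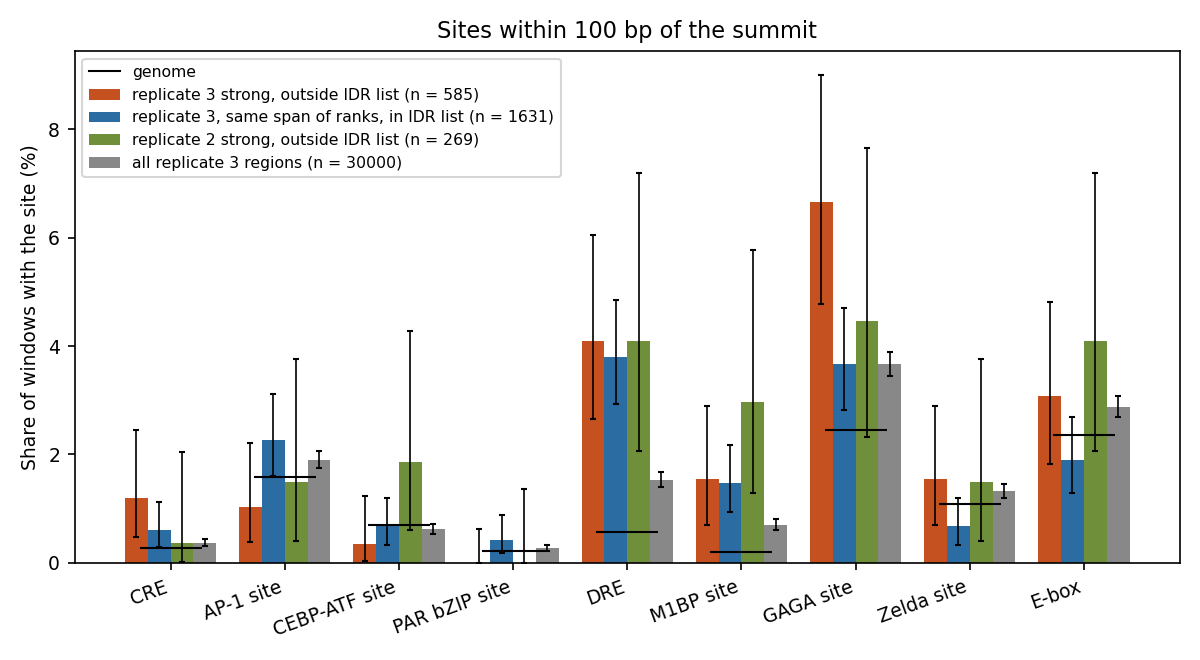
Share of 201 bp windows (%) with each of 9 sites, with exact 95% intervals as error bars, for 4 sets, and black lines for all genome windows of that length. The GAGA site is at 6.67% in the strong replicate 3 regions outside the IDR list (orange) against 3.68% in IDR regions of the same span of ranks (blue). For the bZIP-type sites the orange and blue intervals overlap. The orange CRE interval (0.482 to 2.45%) lies above that of all replicate 3 regions (0.304 to 0.445%).

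Regions of the set overlapped no IDR peak by the rule, and lay closer to IDR peaks than replicate 3 regions outside the list in general. The median gap to the nearest IDR interval was 6573 bp, against 10466 bp for all 25977 replicate 3 regions outside the list. Within 2000 bp of an IDR interval were 140 (23.9%, interval 20.5 to 27.6%), against 15.5% of all outside regions (15.0 to 15.9%). Within 10000 bp it was 62.6%, against 48.7%. The strong replicate 2 regions outside the list were alike, with 23.8% within 2000 bp (18.8 to 29.3%) and a median gap of 7783 bp. Only 34 (5.81%) were within 500 bp. Another member of the set was within 2000 bp of 44 regions, and 18 overlapped another.

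The 20 strongest regions of the set were at genes of many kinds. The first lay in an intron of trx, which encodes a histone methyltransferase of the Trithorax group, on chromosome 3R at 14277708 to 14278143, 8977 bp from the TSS. Its signal was 60.0 in replicate 3 and 26.3 in replicate 2, where it ranked 10903. The second, in an intron of Efa6, an exchange factor for Arf GTPases, had 57.4 and 20.3, and the third, intergenic and 7145 bp from Reg-2, had 54.4 and 34.2. Each had the lower value in replicate 2.

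Among the other 17, promoter summits lay at 14-3-3zeta, an adaptor of phosphorylated proteins (54.0), Su(z)2, a Polycomb group gene (53.6), CG43401 (52.6), Rab2, a GTPase of vesicle traffic (52.6), CG44774 (50.1), sdt, a scaffold of apical polarity (48.5), sqd, an RNA-binding protein (48.4), GstD1 (47.8), Sik3, a kinase related to AMPK (47.7), and sgl, UDP-glucose dehydrogenase (47.4). The Sik3 summit was in the 3′ UTR of the neighbouring CG42855, 54 bp from the Sik3 TSS. Away from promoters were spen (51.3), a nuclear RNA-binding protein, jing (49.5), a zinc finger factor, siz (49.3), an Arf exchange factor, pico (48.9), plh (48.9), fng (48.6) and wg (48.4), the founding Wnt ligand of the fly. Their replicate 2 ranks ran from 6135 at sgl to 28739 at fng, so none of the 20 was among the equally many strongest regions of replicate 2.

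By gene, 327 of 13945 protein-coding genes (2.34%) had a summit of the set at most 500 bp from a TSS. Counting summits inside genes too, it was 530 genes (3.8%), and these are the shares against which the gene lists below are read. One summit can count for several neighbours, as at 66 promoter summits. Of the 530, 195 (36.8%) also had an IDR summit at a TSS or inside, against 18.8% of all protein-coding genes, and long genes can hold several of either. At promoters alone, 31 of the 327 genes (9.48%) also had an IDR promoter summit, against 14.9% of all. The choice left out every region that overlaps an IDR peak, so a low share at promoters is in part built in. The coding summits fell in 44 genes, among them Abl (47.1) and nero (44.6), named after their values were seen.

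Single genes held up to 5 summits of the set. Those with 5 were jing, 119787 bp long, and shn, 58309 bp long, which encodes a zinc finger factor of Dpp signalling. The jing signals ran from 33.8 to 49.5 and the shn signals from 32.9 to 44.7, and IDR summits were inside both, 4 and 6. hth, a homeodomain gene, held 4 summits, with signals of 33.7 to 37.996. With 3 each came Mob2, Svil, px, siz and tkv, the last a type I receptor of Dpp. A further 28 genes held 2 and 343 held 1.

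Of 22 bZIP genes, 2 had a summit of the set at a TSS or inside, CrebB and vri. The CrebB region, in its 5′ UTR 150 bp from a TSS on chromosome X, had a signal of 41.2 and no replicate 2 region. CrebB is the fly homologue of CREB. The gene vri, which encodes a bZIP repressor of the circadian clock, had an intronic region of signal 38.2, ranked 14241 in replicate 2, and a coding one of 34.3 with no replicate 2 region. At Atf-2 itself the strongest replicate 3 region (56.6, rank 1174) overlapped the IDR list, the next had a signal of 25.5 and ranked 5440, and so no region of the set lay there.

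In the p38 list 1 of 7 genes counted, Mef2, a muscle transcription factor (37.97, 5′ UTR, replicate 2 rank 6851). The JNK and AP-1 list had 1 of 18, an intronic region of puc, the JNK phosphatase (36.1, replicate 2 rank 10393). Counts this small say little beside the 3.8% of all genes.

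Of 19 Polycomb group genes, 3 had a promoter summit, Su(z)2 (53.6), jing (36.8 at the TSS) and Pc (38.2), the chromodomain protein that gives the group its name. The Pc region had no replicate 2 region, and that of Su(z)2 ranked 12465 there. Cytosolic ribosomal protein genes, 93 in all, had none at a promoter and 1 inside, a coding summit of RpL8 (34.9). Among 73 mitochondrial ribosomal protein genes, mRpL28 (33.0) and mRpS22 (33.0) had promoter summits. Translation factors had 2 of 22, eEF1alpha1 (36.9, coding) and eIF1A (34.1).

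Cell recognition genes had 3 of 17 at a TSS or inside, Nrg (38.8), Fas3 (36.3) and sli (36.0), and matrix genes 2 of 13, LanA (34.9) and trol (32.9). Patterning and Hox genes had 2 of 34, lab (37.3) and wg, whose region 97 bp from the TSS had a signal of 33.9. Single genes counted among glycolytic enzymes (Ald1, 37.5, of 12), muscle structure (Tm1, 35.7, of 22), the cytoskeleton (betaTub56D, 36.4, of 14), cuticle proteins (Cpr73D, 33.1, of 97) and histone genes (His3.3A, 34.8). No gene of the heat shock (21), neuronal (16), yolk and chorion (16) or proteasome (48) lists counted. Each of these lists is small, and 19 lists were counted.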

How the data were processed

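Biological replicates 2 and 3 of Atf-2-GFP embryos were used, and a replicate 1 and the controls were not analysed here. Chromatin was sonicated to fragments of 200 to 800 bp, per the labels. The deposited peak lists hold, for each region, a signal and a −log10 q-value that the authors' peak caller wrote. Per the deposited readme texts, the replicate lists come from each replicate and a control, the pooled list from both replicates, and the IDR list from these. The aligning and calling software is not given in the sources used here, nor is the IDR threshold, and lists share no common scale.

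The 3265 strongest regions of each replicate, the length of the IDR list, were compared with it. The dm6 lists were read on 6 chromosomes against Release 6 and Ensembl release 115, with Python 3.11.15, numpy 2.4.6, scipy 1.17.1, pandas 2.3.3, statsmodels 0.14.6 and matplotlib 3.10.9. Overlap meant 1 bp, and the overlapping region of highest signal gave the rank. A summit in several kinds of sequence counted once, with UTRs and coding exons first (5′ UTR, then coding, then 3′ UTR) and introns and intergenic sequence last. Shares carry exact 95% intervals and differences Newcombe 95% intervals, with no p-values. Overlap, annotation and interval code was tested on simulated data. The regions, gene lists, sites and alternatives were chosen with earlier results of these data known. Genes named are those at the 20 strongest regions, with most summits, in the bZIP, p38 and JNK lists, the 3 strongest in each other list, at CREs, at the limit of signal and at the best and worst replicate 2 ranks. One gene that falls under this is not reported here. IDR regions of the same ranks were added as a comparison after seeing the data. They share the set's span of ranks and were not matched in signal.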

Additional observations from a re-analysis of the deposited data

How the results depend on the processing

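No paired analysis was possible because the only group had 2 replicates and nothing was compared between groups. Over the results with alternatives, 41 values stayed within 1.5 times as a count, within the original interval as a share or median rank, or, as a difference, kept their sign and whether their interval left out 0. Outside these bounds, 30 counts, shares or median ranks moved. Among the differences, 3 changed sign, 3 came to leave out 0 and 1 came to take in 0. The cause of the changes was not tested. Taking the same number of strongest regions among all outside the IDR list, where the number is fixed by the setting, 36.7% of summits were at promoters, 14.5% were coding, 77.1% had a replicate 2 region, the median rank was 7521, 1371 genes counted, and the promoter difference left out 0 (−12.7 points). Within the stronger 50% of ranks, 18 regions remained, with 0% coding, 0% bZIP-type sites, 100% with a replicate 2 region, a median rank of 11410, 9 genes and a coding difference of −0.682 points (interval −1.22 to 16.9), a change of sign that rests on 18 regions. With 50% overlap with the IDR list, 1023 regions were outside, 4.69% coding, 94.0% with a replicate 2 region, median rank 4095, 634 genes, the promoter difference was 0.828 points (−2.86 to 4.52), and the bZIP difference left out 0 (−1.66 points). Other settings moved the promoter share to 33.8% at 250 bp, where the difference of −5.15 points left out 0, to 57.3% at 1000 bp and to 35.6% with outermost TSSs, the bZIP share to 1.37% with 50 bp and 9.23% with 250 bp, the replicate 2 share to 82.2% with 50% overlap, and the median rank to 6320.5 on dm3.

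Leaving out a replicate gave 269 regions for the rule on replicate 2 (with no IDR list the number is fixed by the setting), 0.743 to 1.93% coding, 177 to 1969 genes, 85.5% with a region in the other replicate, and a median rank of 10163.5. The coding difference was then 0.376 points (interval −0.236 to 2.31), so the excess of coding summits was not resolved in replicate 2. The bZIP difference was then 0.017 points (−1.93 to 3.17). Against IDR regions in the same span of ranks, chosen after seeing the data, the coding, promoter and bZIP differences kept their direction and their side, and the intron (−9.14 to 0.181 points) and Zelda (−0.0352 to 2.26) differences no longer left out 0. Depth is unknown, and shares of rare sites rest on few windows.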

Other observations

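Noncoding genes were counted apart from the gene lists. A summit of the set lay at 5 of 290 tRNA genes (1.72%) and at 2 of 269 snoRNA genes (0.743%). None of 32 snRNA genes had one. Of 3261 other noncoding RNA genes, 31 (0.951%) had a summit of the set. For the IDR list the shares were 3.45% of tRNA, 4.46% of snoRNA, 21.9% of snRNA and 4.57% of the other genes. Regions that overlap IDR peaks were left out of the set by the rule. The share of protein-coding genes with a promoter summit of the set was 2.34%.

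By strength, the share of promoter summits was 52.4% (interval 44.0 to 60.7%) in the 147 strongest regions of the set and 43.2% (35.0 to 51.6%) in the 146 weakest, and the coding share was 6.80% and 6.85%. The median replicate 2 rank was 6717 in the former and 7036 in the latter. The intervals of the promoter shares overlapped, as did those of the coding shares.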
